A study of Mus musculus with 2 samples.

Results

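A set of 9 G1-phase cell cycle genes is described here across the cell names of a single-cell RNA sequencing study of mouse fetal liver erythroid progenitors. They are the D cyclins Ccnd1, Ccnd2 and Ccnd3, the kinases Cdk4 and Cdk6, and the CDK inhibitors Cdkn1a, Cdkn1b, Cdkn1c and Cdkn2c. The genes were taken by symbol from a list, all 9 were found, and the deposited table holds 17608 genes. The cells came from C57BL/6 embryos at E14.5, were labelled as low for CD71 and CD24, and were prepared with a 10x 3' kit that tags each captured transcript end with a unique molecular identifier (UMI).

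A hashed library held FACS CFU-E (167 cells), PE-high (294 cells), FACS BFU-E (233 cells) and PE-low (208 cells), told apart by antibody-linked barcodes. A CITE-seq library, stained with barcoded antibodies to CD117 and CD71, held CS CFUE (195 cells), CS BFUE (122 cells) and 2136 cells named unknown. BFU-E (burst-forming unit-erythroid) names an early committed red cell progenitor and CFU-E (colony-forming unit-erythroid) the stage after it. FACS is fluorescence-activated cell sorting, and the labels also name a magnet method. What PE and CS stand for, which stage each PE fraction was meant to hold and how cells were assigned to names are not stated in the labels. The protocols mention dexamethasone, a glucocorticoid (100 uM, 10 days of culture), with methanol as its control, and do not say whether the sequenced cells were so cultured. The number of embryos behind each name is not stated.

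D cyclins bind Cdk4 or Cdk6 in G1, and the active kinases phosphorylate the retinoblastoma protein family, which releases E2F factors that drive entry into S phase. Inhibitors of the INK4 family, such as the p18 protein of Cdkn2c, bind Cdk4 and Cdk6 and keep D cyclins off. Inhibitors of the CIP/KIP family, encoded by Cdkn1a (p21), Cdkn1b (p27) and Cdkn1c (p57), bind cyclin-CDK complexes. In erythroid cells, cyclin D3 is known to affect the number of divisions before terminal maturation, and Cdk6 is known to be lost as erythroblasts mature.

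Each name is 1 pool and 1 sample, so pools were not tested against each other and the differences have no check by replicates. Levels are summed UMIs of a gene per 1000000 UMIs of the pool (CPM), and intervals are exact 95% intervals for counting error only. The pools held at most 11003022 UMIs (PE-high) and at least 2968491 (CS BFUE), with medians per cell of 38663.5 (the highest, in PE-high) to 23449 (the lowest, in CS BFUE), and no cell barcode was shared between the libraries. The pools named CFU-E or CFUE and PE-high had 5654, 4460 and 5247 CPM in the 22 late erythroid genes (FACS CFU-E, CS CFUE and PE-high), against 1537, 1191 and 1761 CPM in FACS BFU-E, CS BFUE and PE-low. PE-high is therefore set beside the CFU-E pools and PE-low beside the BFU-E pools. The pools also differed in granulocyte and monocyte genes, a list of 16 with such granule and macrophage genes as Mpo, Elane and C1qa. Its summed level was 9.63 to 243 CPM in FACS CFU-E, CS CFUE and PE-high, against 734 to 1500.1 CPM in the other 3 pools. Elane and Ms4a3 were at 0 in FACS CFU-E and in CS CFUE. Cells with at least 3 such UMIs per 10000 are called marked below, and they numbered 0 of 167 cells in FACS CFU-E, 19 in PE-high and 3 in CS CFUE, against 77 of 233 in FACS BFU-E, 44 in CS BFUE and 55 in PE-low. The CS pools come from another library than the others, so for a level set across libraries the library and the name cannot be told apart.

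Promoter sequence is shown for the genes whose levels moved in opposite directions along erythroid maturation (Ccnd3, Cdk6 and Cdkn2c) and for Cdk4, whose level changed little. The letters are the 250 bases before a listed RefSeq transcription start in build GRCm38.p6, written 5' to 3' along the gene's own strand. Capitals mark matches to CCNCNCCC on either strand, a motif of KLF1, an erythroid zinc finger factor that activates CFU-E genes.
Ccnd3, first start (chr17:47504801-47505050, plus strand): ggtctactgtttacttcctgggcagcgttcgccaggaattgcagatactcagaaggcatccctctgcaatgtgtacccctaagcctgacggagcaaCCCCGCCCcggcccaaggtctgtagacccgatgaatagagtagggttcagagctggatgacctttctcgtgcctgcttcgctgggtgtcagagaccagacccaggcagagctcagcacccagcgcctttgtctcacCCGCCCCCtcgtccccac
Ccnd3, second start (chr17:47593217-47593466, plus strand): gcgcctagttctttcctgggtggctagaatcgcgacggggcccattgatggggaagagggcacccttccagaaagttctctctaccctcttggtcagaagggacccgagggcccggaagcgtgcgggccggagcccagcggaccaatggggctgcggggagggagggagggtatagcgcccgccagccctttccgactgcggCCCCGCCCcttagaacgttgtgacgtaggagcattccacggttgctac
Cdk6 (chr5:3343643-3343892, plus strand): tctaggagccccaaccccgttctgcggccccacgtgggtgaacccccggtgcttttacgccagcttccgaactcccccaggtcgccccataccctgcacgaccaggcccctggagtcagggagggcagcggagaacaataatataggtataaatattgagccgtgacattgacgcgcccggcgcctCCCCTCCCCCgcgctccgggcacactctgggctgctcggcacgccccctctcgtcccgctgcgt
Cdk4 (chr10:127063285-127063534, plus strand): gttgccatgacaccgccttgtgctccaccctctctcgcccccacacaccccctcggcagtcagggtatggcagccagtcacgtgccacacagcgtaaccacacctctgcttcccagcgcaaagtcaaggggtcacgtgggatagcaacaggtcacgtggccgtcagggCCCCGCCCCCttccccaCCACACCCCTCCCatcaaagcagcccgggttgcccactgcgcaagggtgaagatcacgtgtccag
Cdkn2c, first start (chr4:109666757-109667006, minus strand): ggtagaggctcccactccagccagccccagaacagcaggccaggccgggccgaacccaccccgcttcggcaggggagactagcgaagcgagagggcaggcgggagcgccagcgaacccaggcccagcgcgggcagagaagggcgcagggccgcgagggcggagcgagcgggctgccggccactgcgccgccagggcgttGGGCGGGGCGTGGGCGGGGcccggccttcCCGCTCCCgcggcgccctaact

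The reference table held 9 promoters for 6 of the 9 genes, with none for Ccnd1, Ccnd2 or Cdkn1c. CCNCNCCC was found in 8 of the 9, the exception being the second start of Cdkn2c, and in 45.93% of all 32851 promoters of that length. The share of G and C letters was 54.0% to 77.2% in the 8 with a match and 42.8% in the exception. Its median over all promoters was 52.4%, and promoters were not matched by base composition. Overlapping matches run together in the capitals, as in Cdk4, where the 4 matches begin 82, 80, 65 and 60 bases before the start. The Ccnd3 matches begin 154 and 18 bases before its first start and 48 bases before its second. The other motifs searched on both strands were those of the GATA factors, spelled AGATAA, and of E2F, spelled TTTCCCGC or TTTGGCGC. None of these letters occurred in the 9 promoters, and they occur in 9.988%, 0.8949% and 0.417% of all promoters. A match is a description of the letters and not a site of binding.

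The D cyclins differed in direction between the early and late pools: Ccnd1 and Ccnd2 stood lower in the late pools, and Ccnd3 was near level or slightly higher. Ccnd1, which encodes cyclin D1 (ENSMUSG00000070348, chr7:144929931-144939831), stood at 0.802 CPM in FACS CFU-E, 3.28 in CS CFUE and 6.45 in PE-high, against 33.8 CPM in FACS BFU-E, 45.5 in CS BFUE and 54.3 in PE-low. The 3 late pools all lay below the 3 early ones. Ccnd1 was 42.1-fold lower in FACS CFU-E than in FACS BFU-E (interval 17.8 to 131), 8.42-fold lower in PE-high than in PE-low (6.52 to 11.0) and 13.9-fold lower in CS CFUE than in CS BFUE (8.94 to 22.4). In the order of levels over all cells, PE-low, CS BFUE and FACS BFU-E had overlapping intervals between neighbours. By counting error alone, PE-high, CS CFUE and FACS CFU-E each lay apart from the pool above. That order of the late pools did not hold in unmarked cells, where PE-high stood at 0.95 CPM, CS CFUE at 2.09 and FACS CFU-E at 0.802.

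Ccnd1 was concentrated in few cells, and marked cells held most of it in PE-high and in the early pools. A Ccnd1 UMI was found in 2 of 167 FACS CFU-E cells, 7.14% of PE-high cells and 5.64% of CS CFUE cells, against 35.6% of FACS BFU-E cells, 37.7% of CS BFUE cells and 37.98% of PE-low cells. The FACS CFU-E share was 1.198% at a median depth of 38377 UMIs, and 1 cell held 4 of the 5 Ccnd1 UMIs of that pool. Unmarked unknown cells of the CITE-seq library rich in adult globin transcripts (at least 100 UMIs per 10000) had one in 3 of 242 cells (1.24%, median depth 23922.5 UMIs). The FACS CFU-E share did not exceed it, though the libraries differ, and in the hashed library itself 0 of 13 such cells had one, which allows a share of up to 23.1%. Marked cells held 85.9% of the Ccnd1 UMIs in PE-high, 82.3% in PE-low, 82.7% in FACS BFU-E and 72.6% in CS BFUE. They held 37.5% in CS CFUE, and FACS CFU-E had no marked cells. The level was 93.6 CPM in marked FACS BFU-E cells against 8.31 CPM in the others, 179 against 12.8 CPM in PE-low and 97.7 against 18.8 CPM in CS BFUE. With marked cells left out, the late to early ratio was 0.0965 for FACS, 0.0742 for PE and 0.111 for CS, against 0.0238, 0.119 and 0.0721 with all cells. Among unmarked cells the mean level fell under 10 CPM in the FACS and PE pairs, so that Ccnd1 was no longer compared there, and the genes past 1.5-fold were 2 of 5 in each of these pairs. In the CS pair it was still compared and lower.

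**Figure D1:**
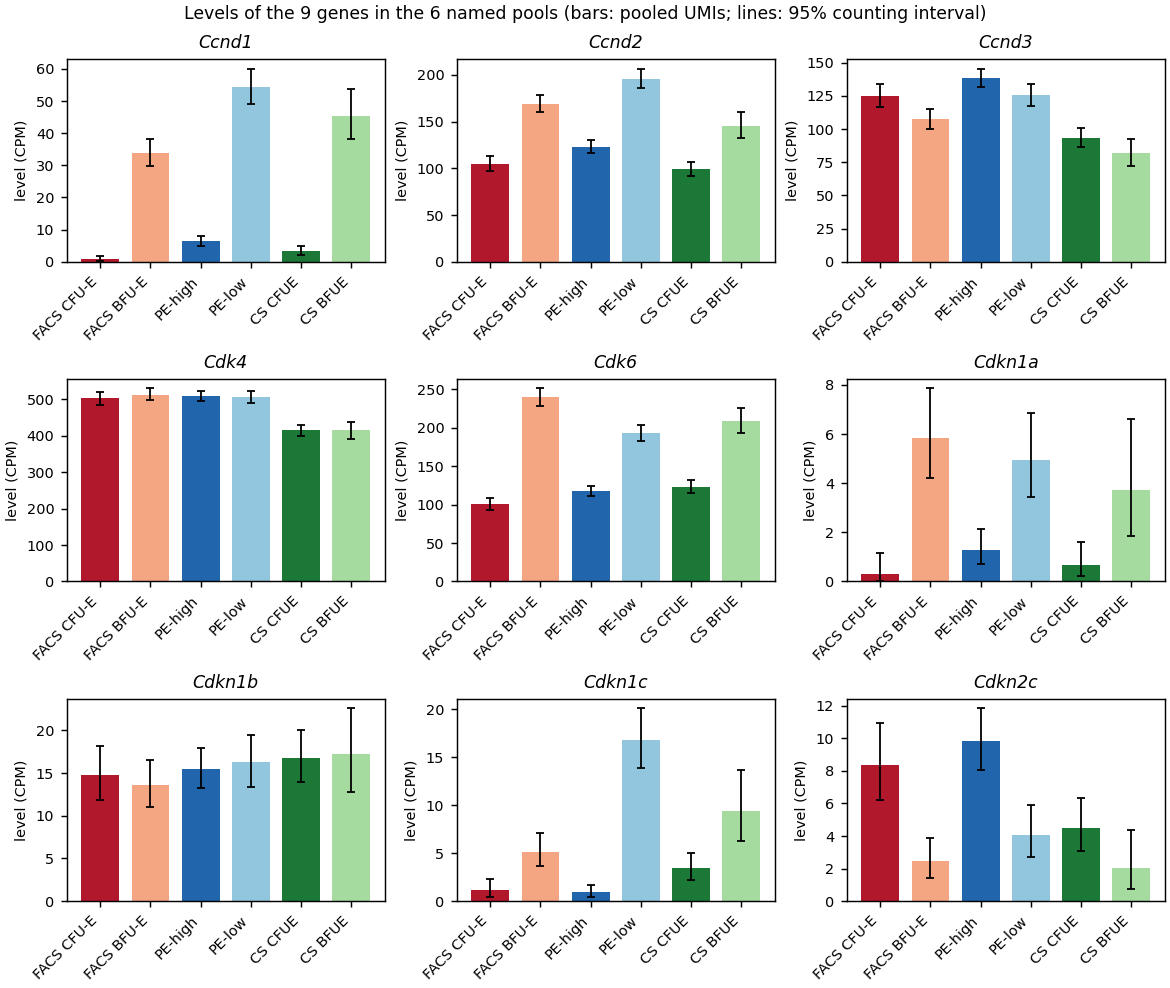
Level of each of the 9 genes (CPM, linear axis from 0) in the 6 named pools, with each late pool left of its early partner; bars are pooled UMIs and lines the 95% counting interval. Ccnd1, Ccnd2 and Cdk6 are lower in every late pool, Cdk4 is level within each pair, and Cdkn2c is higher in each late pool, with overlapping intervals in the CS pair.

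Ccnd2, which encodes cyclin D2 (ENSMUSG00000000184, chr6:127125162-127152188), stood at 105 CPM in FACS CFU-E, 99.1 in CS CFUE and 123 in PE-high, against 169 CPM in FACS BFU-E, 146 in CS BFUE and 196 in PE-low. Again the late pools all lay below the early ones, within a far narrower range than for Ccnd1. The ratio was 0.622 for FACS (0.565 to 0.684), 0.629 for PE (0.583 to 0.678) and 0.681 for CS (0.603 to 0.769). The CS ratio was not past 1.5-fold, and it came to 0.657, past it, with cells thinned to 10000 UMIs. Ccnd2 was spread over nearly all cells, with a UMI in 87.7% to 92.2% of the cells of the late pools and 91.0% to 97.6% of those of the early pools. Its level in the early pools was 167 CPM in marked cells and 169.9 CPM in the others of FACS BFU-E, 212 and 191 CPM in PE-low, and 149.6 and 143 CPM in CS BFUE. Marked cells stood higher in PE-high, at 238 against 118.1 CPM (ratio 2.01, 1.64 to 2.44), and in the unknown cells, at 121 against 79.2 CPM (ratio 1.53, 1.37 to 1.70).

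Ccnd3, which encodes cyclin D3 (ENSMUSG00000034165, chr17:47505051-47599689), stood at 125 CPM in FACS CFU-E, 93.6 in CS CFUE and 138 in PE-high, against 108 CPM in FACS BFU-E, 81.9 in CS BFUE and 126 in PE-low. Each late pool lay slightly above its partner, while the late and early pools overlapped as sets. The ratio was 1.16 for FACS (1.05 to 1.28), 1.10 for PE (1.01 to 1.197) and 1.14 for CS (0.986 to 1.33), all under 1.5-fold. With marked and globin-rich cells both left out, a setting chosen after seeing the data, the PE ratio was 0.970, on the other side of 1.

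Taken as shares of all D cyclin UMIs, the balance moved towards Ccnd3 in every late pool. Ccnd3 made up 54.2% in FACS CFU-E, 47.8% in CS CFUE and 51.6% in PE-high, against 34.7% in FACS BFU-E, 30.0% in CS BFUE and 33.4% in PE-low. Ccnd2 made up 45.5% to 50.6% in the late pools, against 52.1% to 54.5% in the early pools. Ccnd1 made up 0.347% to 2.41% in the late pools, against 10.9% to 16.7% in the early pools. Among unmarked cells, Ccnd1 made up 2.96% in FACS BFU-E, 7.91% in CS BFUE and 3.86% in PE-low, Ccnd2 57.5% to 60.5% and Ccnd3 31.8% to 38.7% of the early pools. The summed D cyclin level was lower in each late pool: 231 CPM in FACS CFU-E, 196 in CS CFUE and 268 in PE-high, against 311 CPM in FACS BFU-E, 273 in CS BFUE and 376 in PE-low. The larger share of Ccnd3 therefore came with less Ccnd1 and Ccnd2 rather than with much more Ccnd3.

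Counted cell by cell, Ccnd3 UMIs outnumbered Ccnd2 UMIs in 51.5% of FACS CFU-E cells, 46.2% of CS CFUE cells and 51.7% of PE-high cells, against 22.7% of FACS BFU-E cells, 24.6% of CS BFUE cells and 28.4% of PE-low cells. With each cell thinned to 10000 UMIs, which left out no cell of a named pool, the shares were 35.4% to 41.8% in the late pools, against 22.1% to 23.6% in the early pools. Most cells held both: Ccnd2 and Ccnd3 were found together in 82.1% to 89.8% of cells of the late pools and in 77.9% to 92.8% of cells of the early pools. The balance between Ccnd2 and Ccnd3 thus differed between pools in which most cells carried both.

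**Figure D2:**
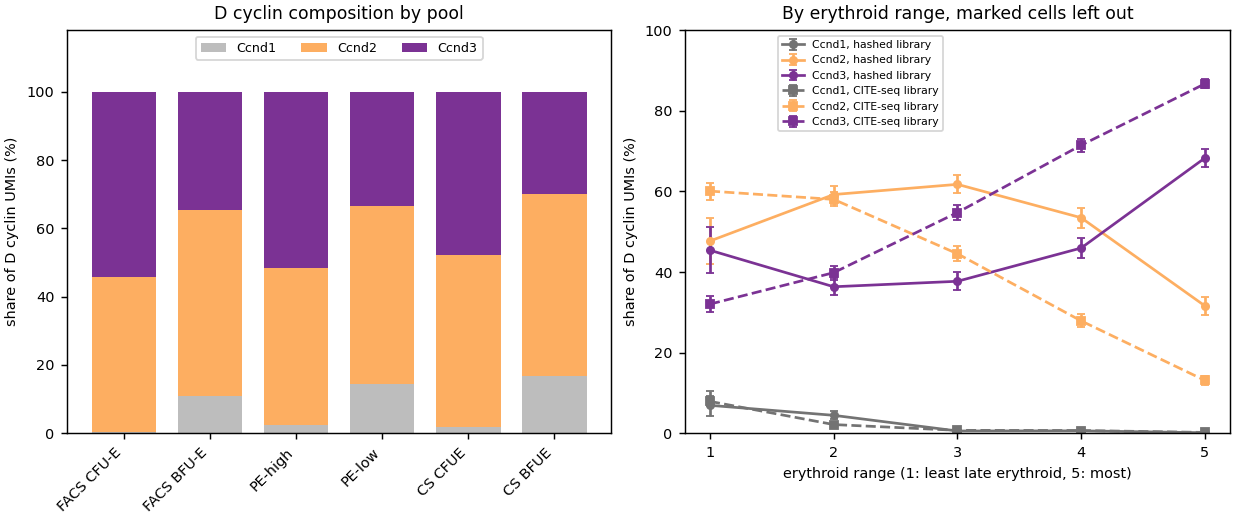
Left, share of Ccnd1, Ccnd2 and Ccnd3 in the D cyclin UMIs of each pool (percent, stacked), late pools left of their partners; right, the same shares in 5 equal erythroid ranges of each library with marked cells left out, with 95% counting intervals. The Ccnd3 share is 47.8% to 54.2% in the late pools and 30.0% to 34.7% in the early ones, and it is highest in range 5 of both libraries.

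The kinases Cdk4 and Cdk6, which share D cyclins as partners, behaved differently from each other. Cdk4 (ENSMUSG00000006728, chr10:127063535-127067288) stood at 503 CPM in FACS CFU-E, 414 in CS CFUE and 509 in PE-high, against 513 CPM in FACS BFU-E, 415 in CS BFUE and 505 in PE-low. Within each pair the pools differed by less than counting error, and the only step was between the libraries. The ratio was 0.980 for FACS (0.934 to 1.03), 1.01 for PE (0.965 to 1.05) and 0.999 for CS (0.935 to 1.07).

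Cdk6 (ENSMUSG00000040274, chr5:3341004-3531008) stood at 100.1 CPM in FACS CFU-E, 123 in CS CFUE and 117 in PE-high, against 239.6 CPM in FACS BFU-E, 209 in CS BFUE and 193 in PE-low. The late pools all lay below the early ones. The ratio was 0.418 for FACS (0.381 to 0.458), 0.607 for PE (0.562 to 0.656) and 0.590 for CS (0.532 to 0.655), and with thinned cells the CS ratio was 0.686, no longer past 1.5-fold. Cdk6 differed in no common direction between marked and other cells: it stood at 248 CPM in marked FACS BFU-E cells and 236 CPM in the others, in PE-high at 153 CPM in marked cells and 116 CPM in the others, and in PE-low at 143 CPM in marked cells and 210.3 CPM in the others.

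**Figure D3:**
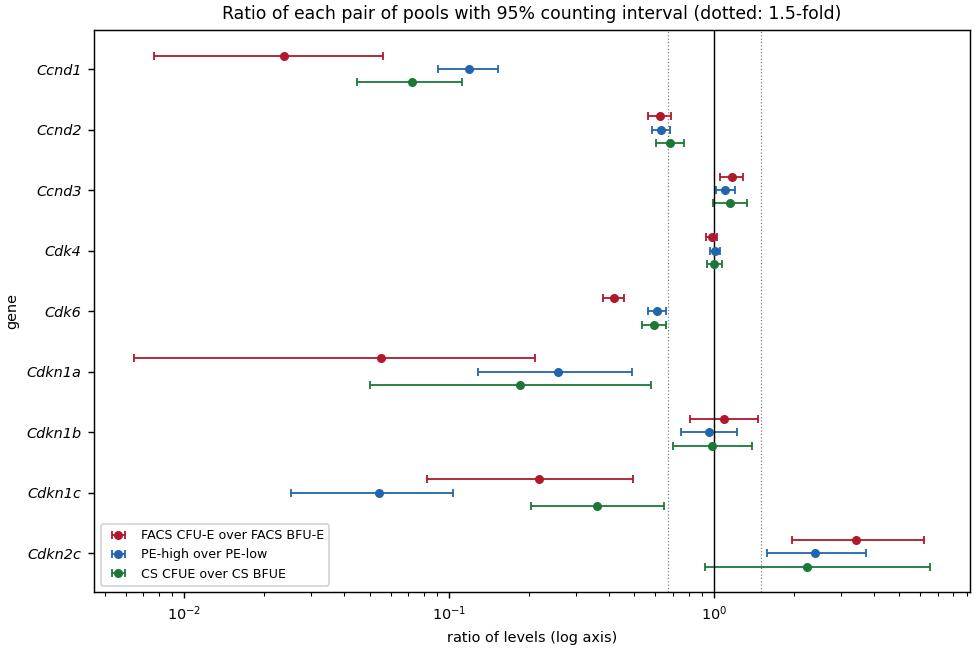
Ratio of the late pool over the early pool for each of the 9 genes (log axis) in the 3 pairs of pools, with 95% counting intervals; the solid line marks equal levels and the dotted lines 1.5-fold. Cdk4 and Cdkn1b lie at the solid line, Ccnd1, Ccnd2, Cdk6, Cdkn1a and Cdkn1c to its left, and Cdkn2c to its right.

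The 4 inhibitors were all at low levels, and each had its own pattern. Cdkn1b, which encodes p27 (ENSMUSG00000003031, chr6:134920401-134925525), stood at 14.8 CPM in FACS CFU-E, 16.8 in CS CFUE and 15.4 in PE-high, against 13.6 CPM in FACS BFU-E, 17.2 in CS BFUE and 16.2 in PE-low. No neighbours in the order of its 6 levels lay apart. Its ratios were 1.09 (0.811 to 1.46), 0.952 (0.747 to 1.22) and 0.978 (0.700 to 1.38) for FACS, PE and CS, and the CS ratio was 0.505 with thinned cells.

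Cdkn2c, which encodes p18 (ENSMUSG00000028551, chr4:109660876-109666756), was the inhibitor with more transcripts in the late pools. It stood at 8.34 CPM in FACS CFU-E, 4.51 in CS CFUE and 9.82 in PE-high, against 2.44 CPM in FACS BFU-E, 2.02 in CS BFUE and 4.09 in PE-low. Each late pool lay above its partner and, as sets, the late pools lay above the early ones, though CS CFUE and PE-low were close. The ratio was 3.42 for FACS (1.97 to 6.21), 2.40 for PE (1.58 to 3.75) and 2.23 for CS (0.923 to 6.51), the last on 33 UMIs against 6.

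Cdkn1a, which encodes p21, the inhibitor induced by p53 (ENSMUSG00000023067, chr17:29090979-29100722), stood at 0.321 CPM in FACS CFU-E, 0.683 in CS CFUE and 1.27 in PE-high, against 5.83 CPM in FACS BFU-E, 3.71 in CS BFUE and 4.94 in PE-low. The late pools lay below the early ones on few counts, 2 to 14 UMIs against 11 to 43. Marked cells held 86.0% of the Cdkn1a UMIs of FACS BFU-E, 85.7% of those of PE-low and 90.9% of those of CS BFUE. With marked cells left out the ratios were 0.277 for FACS, 0.505 for PE and 1.37 for CS, against 0.0550, 0.258 and 0.184 with all cells. The unmarked cells held 2 Cdkn1a UMIs in FACS CFU-E against 6 in FACS BFU-E, and 5 in PE-high against 5 in PE-low. In the CS pair they held 5 in CS CFUE against 1 in CS BFUE, so these counts are too few to give a direction.

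Cdkn1c, which encodes p57 and is an imprinted gene (ENSMUSG00000037664, chr7:143458339-143461059), stood at 1.12 CPM in FACS CFU-E, 3.42 in CS CFUE and 0.909 in PE-high, against 5.15 CPM in FACS BFU-E, 9.43 in CS BFUE and 16.8 in PE-low. The late pools all lay below the early ones. The ratio was 0.218 for FACS (0.0821 to 0.494), 0.0541 for PE (0.0253 to 0.103) and 0.362 for CS (0.203 to 0.644). A single PE-low cell held 57 of the 119 Cdkn1c UMIs of its pool, and without it PE-low stood at 8.78 CPM and the PE ratio at 0.104. Unlike Cdkn1a, Cdkn1c was not mostly in marked cells, which held 28.9% of its UMIs in FACS BFU-E, 18.5% in PE-low and 14 of 28 UMIs in CS BFUE.

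The summed level of the 4 inhibitors hid these opposite patterns. It was 24.5 CPM in FACS CFU-E, 25.4 in CS CFUE and 27.4 in PE-high, against 27.0 CPM in FACS BFU-E, 32.3 in CS BFUE and 42.1 in PE-low. The Cdkn2c share of that sum was 17.7% to 35.8% in the late pools, against 6.25% to 9.73% in the early pools, while Cdkn1b held 56.3% to 66.1% in the late pools and 38.6% to 53.1% in the early ones.

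**Figure D4:**
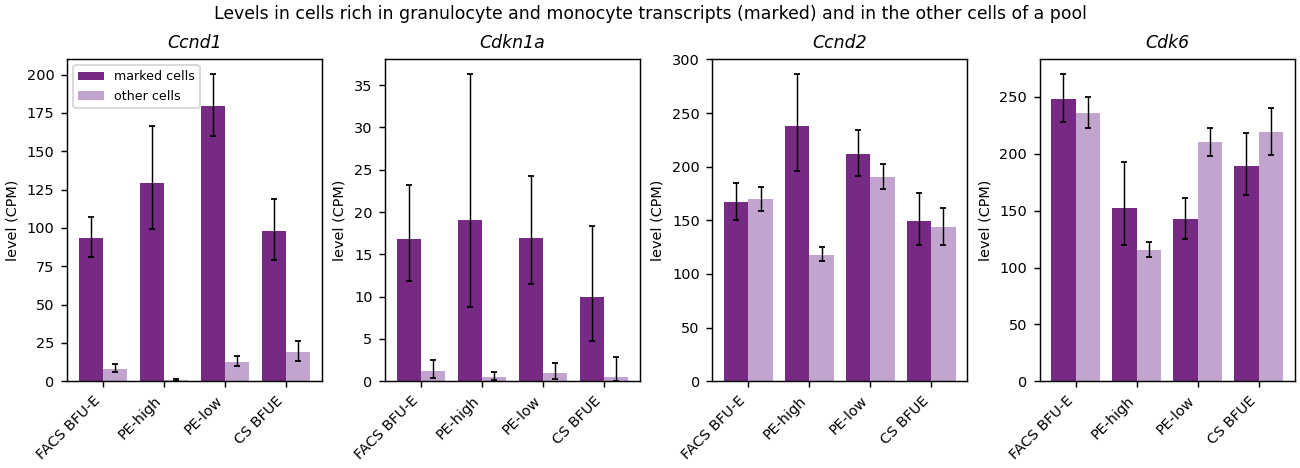
Level (CPM, linear axes from 0) of Ccnd1, Cdkn1a, Ccnd2 and Cdk6 in marked cells, which are rich in granulocyte and monocyte transcripts, and in the other cells of the 4 pools with more than 3 marked cells; lines are 95% counting intervals. Ccnd1 and Cdkn1a stand far higher in marked cells in all 4 pools, while Ccnd2 and Cdk6 stand at similar levels in both kinds of FACS BFU-E and CS BFUE cells.

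Counts past 1.5-fold were read over genes with a mean of at least 10 CPM in a pair. In FACS CFU-E over FACS BFU-E, 6 of the 9 genes were compared, 3 were lower (Ccnd1, Ccnd2 and Cdk6) and 0 were higher, beside 22.6% of 7262 genes past 1.5-fold either way and 13.7% lower. In PE-high over PE-low the same 3 of 6 were lower and 0 higher, beside 17.0% of 7253 genes either way and 10.7% lower. In CS CFUE over CS BFUE, 2 of 6 were lower (Ccnd1 and Cdk6) and 0 higher, beside 23.4% of 6900 genes either way and 13.1% lower. Cdkn1a, Cdkn1c and Cdkn2c were under that level in all 3 pairs and are given above by their values. Cdkn2c, higher in each late pool, is therefore not in these counts, and Ccnd1 reached the level only through the early pools. With no filter, 1 of the 9 genes was higher and 5 were lower in each of the FACS and PE pairs. The shares of all genes past 1.5-fold either way were then 44.5% and 43.8%. The median log2 ratio of the compared members was -0.36, -0.37 and -0.29, beside 0.00, -0.02 and 0.02 over all genes compared.

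The rest of the G1/S machinery, a list of 31 genes of which 30 were in the table, had more genes higher than lower in the late pools. Levels and ratios of this list are over all cells, marked cells included, and are not given without them. In FACS CFU-E over FACS BFU-E, 28 were compared, 8 were higher and 2 lower, beside 8.91% of all genes higher and 13.7% lower. In PE-high over PE-low, 7 of 28 were higher and 2 lower, beside 6.3% higher and 10.7% lower. In CS CFUE over CS BFUE, 7 of 26 were higher and 1 lower, beside 10.3% higher and 13.1% lower. Rb1 and Cdkn2d in the FACS and CS pairs, and Rbl2 in the FACS pair, had a pool under 10 CPM. They reached the level for comparison only through the pool where they stood higher. The list was chosen with earlier results of these data known, so its counts are descriptions. The median log2 ratio of the list was 0.07 (FACS), 0.04 (PE) and -0.05 (CS). Ccne1, which encodes the Cdk2 partner cyclin E1, stood at 234 CPM in FACS CFU-E, 124 in CS CFUE and 228 in PE-high, against 88.3 CPM in FACS BFU-E, 31.0 in CS BFUE and 96.7 in PE-low. Its ratio was 2.65, 2.36 and 4.01 in the FACS, PE and CS pairs, so that cyclin E1 transcripts stood higher where those of cyclins D1 and D2 stood lower.

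Rb1, which encodes the retinoblastoma protein, stood at 24.9 CPM in FACS CFU-E, 22.4 in CS CFUE and 20.1 in PE-high, against 8.54 CPM in FACS BFU-E, 9.77 in CS BFUE and 11.0 in PE-low. E2f4, an E2F member chiefly known as a repressor partner of the pocket proteins, was 2.08-fold higher in FACS CFU-E than in FACS BFU-E and 2.46-fold higher in CS CFUE than in CS BFUE, and E2f2 was 2.07-fold higher in PE-high than in PE-low. Cdkn2d encodes p19, an INK4 inhibitor like p18. It stood at 6.90 CPM in FACS CFU-E, 8.06 in CS CFUE and 12.3 in PE-high, against 31.1 CPM in FACS BFU-E, 31.7 in CS BFUE and 35.7 in PE-low. Cdkn2d was 4.50-fold lower in the FACS pair, 2.91-fold lower in the PE pair and 3.93-fold lower in the CS pair, opposite in direction to Cdkn2c.

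The isolation methods were compared at each stage. In PE-low over FACS BFU-E, 7 of the 9 genes were compared, 2 were higher (Ccnd1 and Cdkn1c) and 0 lower, beside 1.77% of 7440 genes past 1.5-fold either way, 0.78% higher and 0.995% lower. Ccnd1 stood at 54.3 CPM in PE-low and 33.8 CPM in FACS BFU-E, a ratio of 1.61 (1.37 to 1.895), and at 12.8 and 8.31 CPM in the unmarked cells of those pools. With thinned cells the ratio was 1.34. Cdkn1c stood at 16.8 CPM in PE-low and 5.15 CPM in FACS BFU-E, a ratio of 3.26 (2.25 to 4.83), which was 1.70 without the single PE-low cell named above. Without that cell PE-low stood at 8.78 CPM, so both pools were under 10 CPM. Cdkn1c was then no longer compared, and only Ccnd1 was past 1.5-fold. Ccnd2 (ratio 1.16), Ccnd3 (1.17), Cdk4 (0.985), Cdk6 (0.807) and Cdkn1b (1.197) lay under 1.5-fold.

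In PE-high over FACS CFU-E, 5 of the 9 genes were compared and 0 were past 1.5-fold, beside 1.61% of 6971 genes either way, 1.29% higher and 0.316% lower. Their ratios were 1.17 for Ccnd2, 1.11 for Ccnd3, 1.01 for Cdk4, 1.17 for Cdk6 and 1.05 for Cdkn1b. The Ccnd3 ratio was 1.01 without globin-rich cells and 0.994 without marked and globin-rich cells. Ccnd1, below the level for comparison, stood at 6.45 CPM in PE-high and 0.802 CPM in FACS CFU-E, and their ratio was 8.04 (3.29 to 25.5). The 19 marked cells of PE-high held 61 of its 71 Ccnd1 UMIs, and with marked cells left out the ratio was 1.18. In the pathway list, 27 genes were compared between methods at each stage, and 0 lay past 1.5-fold.

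To follow the genes without the pool names, the cells of each library were put in 5 equal ranges by the share of late erythroid list UMIs among late and early erythroid list UMIs, with none of the 9 genes in those lists. Range 1 holds the least and range 5 the most late erythroid cells. In range 1, 82.8% of hashed and 37.8% of CITE-seq cells were marked, and in range 5, 7.73% of hashed and 42.4% of CITE-seq cells were globin-rich, with at least 100 adult globin UMIs per 10000. Cdk6 stood at 216, 246, 175, 119 and 63.9 CPM in ranges 1 to 5 of the hashed library and at 168, 149, 100.8, 65.4 and 32.8 CPM in those of the CITE-seq library. It was 3.37-fold lower (3.01 to 3.78) and 5.12-fold lower (4.62 to 5.70) in range 5 than in range 1, and its level went down at each step from range 2 on. With marked cells left out, range 1 stood at 331 and 192 CPM, above range 2 in both libraries. Ccnd2 stood at 192, 190.3, 162, 120 and 84.1 CPM and at 141, 112, 80.3, 57.6 and 37.1 CPM, lower in each later range of both libraries, though ranges 1 and 2 of the hashed library differed by less than their intervals. Without marked cells these stood at 179.7 and 191 CPM, so the order of the pair turned around.

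Ccnd3 followed another course, with its lowest level in range 3 of the hashed and range 2 of the CITE-seq library. It stood at 131, 119, 99.0, 103 and 182 CPM in the hashed library and at 95.8, 77.3, 98.7, 148 and 245 CPM in the CITE-seq library. Range 5 over range 1 was 1.39 (1.27 to 1.53) and 2.55 (2.39 to 2.73). With marked cells left out, range 1 of the hashed library kept 31 cells and stood at 171 CPM, close to the 182 CPM of range 5, so that in this library the higher level of range 5 shows only against ranges 2 to 4. The Ccnd3 share of D cyclin UMIs was 29.8%, 36.7%, 37.7%, 46.0% and 68.3% in the hashed library and 32.8%, 39.9%, 54.7%, 71.5% and 86.6% in the CITE-seq library. With marked cells left out, range 1 of the hashed library had a share of 45.4% (39.7% to 51.2%) and range 2 of 36.3%, so that there the share was higher at each step only from range 2 on, while range 1 of the CITE-seq library stood at 32.0%.

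Cdk4 changed little along the ranges, between 474 and 541 CPM in the hashed library and between 390.3 and 427 CPM in the CITE-seq library. Its range 5 over range 1 ratio was 0.935 (0.889 to 0.983) in the hashed and 0.979 (0.941 to 1.02) in the CITE-seq library. Cdkn2c stood at 3.27, 1.69, 4.87, 7.91 and 14.1 CPM in the hashed library and at 3.83, 3.08, 6.04, 10.2 and 15.3 CPM in the CITE-seq library, higher at each step from range 2 on. Its range 5 over range 1 ratio was 4.32 (2.56 to 7.72) and 3.998 (2.91 to 5.60). Cdkn1b stayed between 12.5 and 18.3 CPM and between 14.4 and 21.0 CPM, lowest in range 3 of both libraries. Ccnd1 stood at 116 and 14.4 CPM in ranges 1 and 2 of the hashed library and at 55.4 and 4.23 CPM in those of the CITE-seq library, and lay under 1.5 CPM in ranges 3 to 5 of both. Without marked cells, range 1 stood at 26.0 CPM in the hashed and 19.2 CPM in the CITE-seq library. Cdkn1c likewise stood at 20.003 and 7.94 CPM in ranges 1 and 2 of the hashed library and at 32.7 and 3.14 CPM in those of the CITE-seq library, and at 0.431 to 2.43 CPM in the later ranges of both. Few cells set its range 1 level: 1 unmarked hashed cell held 57 of the 104 UMIs there, and 8 unmarked CITE-seq cells held 328 of 410. With cells of at least 10 Cdkn1c UMIs left out, a setting chosen after seeing the data, range 1 stood at 9.07 and 6.62 CPM and range 2 at 7.94 and 2.18 CPM.

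**Figure D5:**
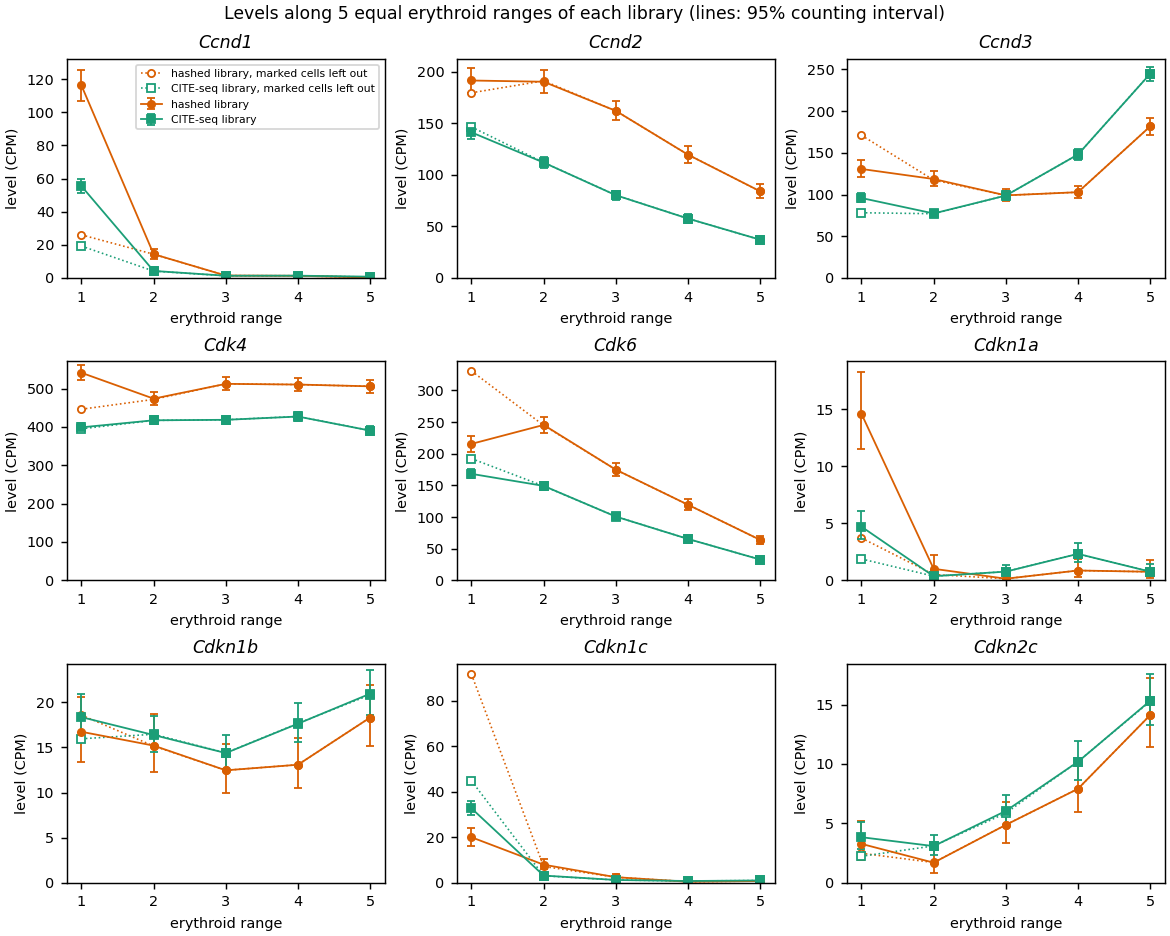
Level of each of the 9 genes (CPM, linear axis from 0) in 5 equal erythroid ranges of the hashed and CITE-seq libraries, with 95% counting intervals; open points leave out marked cells. Cdk6 and Ccnd2 go down and Cdkn2c goes up from range 2 to range 5 in both libraries, Ccnd3 is highest in range 5, though hashed range 1 without marked cells is close to it (182 CPM in range 5, 171 in range 1), and Cdk4 shows no such course.

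Globin-rich cells, which carry the transcripts of maturing erythroblasts, were set against the other unmarked cells. Among unmarked PE-high cells, Ccnd3 stood at 416 CPM in 13 globin-rich cells and 124 CPM in the other 262, a ratio of 3.34 (2.85 to 3.91). Among unmarked unknown cells of the CITE-seq library it stood at 311 CPM in 242 globin-rich cells and 116 CPM in the other 1751, a ratio of 2.69 (2.55 to 2.83). Cdk6 went the opposite way, at 11.4 against 120.4 CPM in PE-high and 19.1 against 106 CPM in the unknown cells. It was 10.6-fold lower (4.53 to 32.7) and 5.56-fold lower (4.62 to 6.74) in the globin-rich cells. Cdkn2c stood at 27.3 against 9.41 CPM and at 21.4 against 6.45 CPM. Cdk4 was slightly lower in the globin-rich cells, with ratios of 0.822 (0.706 to 0.952) and 0.829 (0.793 to 0.867). There were 90 cells with 80 to 120 adult globin UMIs per 10000, so the globin-rich cells are one end of a continuous range.

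The cells of each library were also put in 3 equal ranges by their share of S phase or, separately, G2/M phase transcripts. Cells of the highest and lowest of these ranges were compared within each erythroid range of each library, 10 sets in all. The groups were therefore unequal, as for S with 31 high and 86 low cells in hashed range 1, and 108 and 22 in hashed range 5. Differences in maturation that remain within an erythroid range were not tested. Cdkn2c was higher in the cells high in S phase transcripts in 10 of 10 sets, with an interval above 1 in 5 of them and ratios of 1.41 to 4.34. Cdkn1b was higher in the cells high in G2/M transcripts in 9 of 10 sets, with an interval above 1 in 4, and its ratios ran between 0.593 and 4.23. Ccnd3 was higher in the cells high in S transcripts in 9 of 10 sets and in those high in G2/M transcripts in 8 of 10. Cdk6 was lower in the cells high in S transcripts in all 10 sets, with an interval below 1 in 4. In those high in G2/M transcripts Cdk6 was higher in 6 of 10, with an interval above 1 in 4 and below 1 in 1. Cdkn2c was higher in the cells high in G2/M transcripts in 5 of 10 sets. Cdkn1b was higher in those high in S transcripts in 4 of 10. These sets include marked cells, share cells between the S and G2/M comparisons, and are descriptions with no count over all genes beside them.

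The genes whose pattern over the 6 pools was nearest to each of the 6 members with a mean of at least 10 CPM were found by the root mean square difference of mean-centred log2(CPM + 1), among 7155 genes. They were Ifi203, Klhl6 and Mndal for Ccnd1, Arpc2, Yif1b and Ralgapa2 for Ccnd2, and Fam8a1, Uso1 and Gm49336 for Ccnd3. They were Mrpl58, Tmem223 and Hnrnpk for Cdk4, Thap3, Tmem40 and Prkacb for Cdk6, and Rbm28, Dhx8 and Parp2 for Cdkn1b. The nearest gene differed by 0.14 for Ccnd1, 0.05 for Ccnd2, 0.06 for Cdk6, and 0.02 for Ccnd3, Cdk4 and Cdkn1b on the log2 scale. Some genes share genome positions with a neighbour in the table: Ccnd1 with LTO1, Ccnd2 with 9330179D12Rik, Ccnd3 with Bysl and Cdk4 with Tspan31. The labels do not say whether the counting used strand, so reads of these pairs cannot be told apart with certainty.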

How the data were processed

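Single cells of 2 libraries were measured with a 10x 3' kit, per the labels' protocols. The deposited expression table holds natural log values, ln(1 + count per 10000 of the cell), for 3357 cells and 17608 genes, and a second deposited table names the cells. Per the submitters' processing notes, the tools were Cell Ranger 4.0.0 and Scanpy, on build mm10. No source used here states how cells or genes were filtered. UMIs were recovered by undoing the log and dividing by each cell's smallest nonzero value, and all 16419767 nonzero values came out whole within 0.02.

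Recovered UMIs were summed per pool and scaled to the pool total. Levels carry exact Poisson intervals, ratios exact conditional binomial intervals, and shares exact Clopper-Pearson intervals, all at 95%, and these cover counting error only. A gene was compared at a mean of at least 10 CPM in the pair and counted as higher or lower at 1.5-fold. With 1 pool per name there is no p-value. The depth of a pool was 2968491 to 11003022 UMIs. No doublet caller was run, and the deepest 5% of cells were left out as an alternative. Other alternatives were median-of-ratios size factors, the mean over cells, thinning to 10000 UMIs, other filters, 2-fold, and leaving out marked or globin-rich cells. Leaving out both kinds of cell, leaving out the PE-low cell with the most Cdkn1c UMIs, and leaving out cells with at least 10 Cdkn1c UMIs by range, were chosen after seeing the data. The ratio rule was run on simulated pools of independent counts, with known changes in genes above the level for comparison. Those counts held no clumping of UMIs in few cells, so the run does not bear on clumped or low genes. Named genes are the 9 members, up to 4 pathway genes a comparison with the largest ratio past 1.5-fold, and the 3 nearest patterns of each member with at least 10 CPM. The imprinted, collagen and hepatocyte genes named for the cells with at least 10 Cdkn1c UMIs fall outside this rule. The members and lists were chosen with earlier results of these data known. Positions and promoters are from RefSeq for GRCm38.p6, the assembly that mm10 denotes. Python 3.11.15, NumPy 2.4.6, SciPy 1.17.1, pandas 2.3.3 and matplotlib 3.10.9 were used. The deposited principal components were not used here.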

Additional observations from a re-analysis of the deposited data

Results flagged for a closer look

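Cdk6 moved in opposite directions between the isolation methods at the 2 stages. It stood at 117 CPM in PE-high and 100.1 CPM in FACS CFU-E (ratio 1.17, interval 1.07 to 1.29), and at 193 CPM in PE-low and 239.6 CPM in FACS BFU-E (ratio 0.807, interval 0.752 to 0.867). The difference between these ratios was not tested, since each pool is 1 sample, and both ratios lie under 1.5-fold. In PE-low the level was 143 CPM in marked cells and 210.3 CPM in the others, and with marked cells left out of both pools the ratio was 0.891. The part of the marked cells in the result was not tested further.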

How the results depend on the processing

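No paired analysis was possible because the pools carry no replicate numbers and each name has 1 pool. For the 45 ratios of the 9 genes in 5 comparisons, 299 values under the alternatives stayed within the counting interval of the ratio as reported, 34 did not, and 0 called ratios changed direction. Ratios of Cdk4 and Cdkn1b near 1 lay on either side of it, and other ratios that were not called also crossed 1. Without marked and globin-rich cells the Ccnd3 ratio did so in the PE pair and in PE-high over FACS CFU-E. Without marked cells the Cdkn1a ratio of the CS pair did so, on the few UMIs given above. With no filter on low levels, the members past 1.5-fold were 6 in the FACS pair, 6 in the PE pair, 5 in the CS pair and 2 in PE-high over FACS CFU-E, beside 44.5%, 43.8%, 46.4% and 29.3% of all genes. At 2-fold, 1 was past it in the PE pair, 1 in the CS pair and 1 in PE-low over FACS BFU-E, beside 8.24%, 11.3% and 0.645%. With a filter of 50 CPM and 10% of cells, 1 was past 1.5-fold in the CS pair and 1 in PE-low over FACS BFU-E, beside 19.5% and 0.796%. Thinned cells gave 1 in PE-low over FACS BFU-E (beside 5.79%), and so did leaving out the PE-low cell with the most Cdkn1c UMIs (beside 1.74%). Leaving out marked cells gave 2 of 5 in the FACS and PE pairs, beside 17.6% and 14.1%, as Ccnd1 was no longer compared. The Ccnd3 share was 53.4% in PE-high without marked cells and 48.8% without globin-rich cells, 32.2% in FACS BFU-E with thinned cells, and 38.7% in PE-low without marked cells, also where globin-rich cells were left out as well. The cause of each change was not tested, other than by the number of genes that a filter or a fold lets through. Depth limits Cdkn1a, Cdkn1c and Cdkn2c, with 2 to 43, 7 to 119 and 6 to 108 UMIs per named pool, and Ccnd1 in FACS CFU-E, with 5.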

Other observations

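Cdkn1c stood at 7.26 CPM in the 2136 unknown cells of the CITE-seq library, and few cells held most of it. A group of 10 cells, chosen after their values were seen, had at least 10 Cdkn1c UMIs each: 9 unknown cells, which held 344 of 452 unknown-cell UMIs (76.1%), and the single PE-low cell with 57. Without its 9 cells the unknown level was 1.74 CPM. H19, an imprinted RNA of fetal tissue, had a UMI in 10 of 10 and Igf2, the imprinted growth factor gene beside it, in 9 of 10. Among the other 3347 cells, 10.04% had a UMI of H19 and 2.48% one of Igf2. The collagen genes Col3a1 and Col1a1 had a UMI in 5 of 10 each, against 0.329% and 0.388% of the other cells. The hepatocyte genes Alb and Afp had a UMI in 4 of 10 each, but also in 21.6% and 21.9% of the other cells, and more than 10 UMIs in 1 of 10 each. Granulocyte and monocyte list UMIs were at 0 in 8 of 10. Early erythroid list UMIs were found in all 10 cells, with a median of 12. Late erythroid list UMIs were at 0 in 1 of 10, with a median of 4. What kind of cells these are was not tested.

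The unknown cells as a whole stood at 10.5 CPM for Ccnd1, 81.2 for Ccnd2, 136 for Ccnd3, 411 for Cdk4, 96.8 for Cdk6, 1.69 for Cdkn1a, 17.4 for Cdkn1b and 8.11 for Cdkn2c. Ccnd3 made up 59.7% of their D cyclin UMIs, above the share in each named pool, and 242 of these cells were globin-rich and unmarked.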
